A study of Mus musculus with 24 samples.

Results

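The immunoglobulin heavy chains of the switched isotypes IgG2a/c, IgG2b and IgG3 were examined in 8 B cell receptor (BCR) libraries made from spleen RNA of BALB/c mice. Members were the rows with IGH V and J segments, a CDR3 translated into letters only, and a constant gene named IGHG2A, IGHG2C, IGHG2B or IGHG3. They made up 51091 of 583846 in-frame heavy-chain rows and of 1154635 rows in all. The constant name was IGHG2C in 21425 of these rows, IGHG3 in 21180, IGHG2B in 8483 and IGHG2A in only 3. These rows held 13091, 11359, 7379 and 13139 reads in titled control 1 to 4 and 43617, 42764, 34228 and 63716 in titled CT-26 1 to 4.

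The study compared spleens of a CT-26 model with normal spleens, and the same titles also carry RNA-seq libraries, used below, and T cell receptor libraries, not used here. CT-26 is a colon carcinoma cell line of BALB/c origin, and the protocol text gives injection into the right side of mice aged 8 weeks. The titles put 4 BCR libraries in a control set and 4 in a CT-26 set, but the treatment field is the reverse: the control titles are marked as cell-injected, and the CT-26 titles as healthy. The sets are therefore named by title, and no difference below is read as an effect of the tumour. All 8 libraries are labelled splenocytes, with BALB/c mouse as genotype and no other allele or agent, and no label says whether libraries came from separate animals or a pool. The p-values thus measure only the spread between these libraries, which may be technical.

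Mouse B cells replace the IgM constant region by class switching, which leaves the rearranged V, D and J segments in place. IgG2a (called IgG2c in strains with the other allele) and IgG2b switching is promoted by interferon-gamma and by transforming growth factor-beta, respectively, and IgG3 is a typical isotype of responses to T cell-independent polysaccharides. CDR3, the junction of V, D and J, is the most diverse loop of the heavy chain and serves as a tag of a B cell clone. BALB/c carries the Ighg2a allele whereas the mouse reference genome carries Ighg2c, so the subclass name in these tables follows the reference used and is written IgG2a/c here.

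A CDR3 form that was noticed in the sequences is shown first. In every library IgG2a/c and IgG3 held CDR3 sequences of 13 residues, counted with its flanking cysteine and tryptophan, that begin cysteine-alanine-arginine-leucine, have tyrosine-glycine at the seventh and eighth residue and end in tyrosine-tryptophan. The most abundant such nucleotide sequence of each library is shown because all titled control libraries shared 1 of them while each titled CT-26 library had its own. The leucine codon and the tyrosine-glycine codons are in capitals.
titled control 1, 2, 3 and 4: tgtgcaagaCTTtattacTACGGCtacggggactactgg
titled CT-26 1: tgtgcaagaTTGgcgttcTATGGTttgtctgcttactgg
titled CT-26 2: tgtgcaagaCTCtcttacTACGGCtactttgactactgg
titled CT-26 3: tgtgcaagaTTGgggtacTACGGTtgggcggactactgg
titled CT-26 4: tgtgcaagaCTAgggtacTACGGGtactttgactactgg
The first had 1414, 1529, 589 and 1399 reads over the 3 isotypes in titled control 1 to 4. The others had 3243, 1146, 6969 and 3968 reads in titled CT-26 1 to 4. They were not the most abundant CDR3 sequence of every library. Sequences of another form had 3329 reads in titled CT-26 1 and 3250 in titled CT-26 2. All joined to IGHJ2 except that of titled CT-26 1, which joined to IGHJ3. The same nucleotide sequence was also read in IgM of its own library each time, with 107 to 185 reads where titled control and with 541, 1303, 5227 and 2422 in titled CT-26 1 to 4.

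The 4 titled control libraries were not independent in their clones. Summing the smaller of both read shares over all CDR3 nucleotide sequences, pairs of titled control libraries overlapped by 37.9% to 54.2% of IgG2a/c reads, 20.1% to 27.4% of IgG2b reads and 36.0% to 52.6% of IgG3 reads. Pairs of titled CT-26 libraries overlapped by 0.397% to 1.78%, 0.0409% to 2.22% and 0.238% to 0.874%. Pairs across the sets overlapped by at most 0.186%, 0.143% and 0.296%. The 3 isotypes share the high overlap of titled control pairs with IgM, where these overlapped by 40.5% to 47.5% and titled CT-26 pairs by 3.43% to 4.37%. Pairs across the sets overlapped by 3.135% to 5.76% of IgM reads, no less than titled CT-26 pairs (means 3.88% and 3.77%). In the 3 isotypes titled CT-26 pairs had the higher means. These were 0.84% against 0.11% across the sets in IgG2a/c, 1.12% against 0.073% in IgG2b and 0.55% against 0.12% in IgG3.

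**Figure D1:**
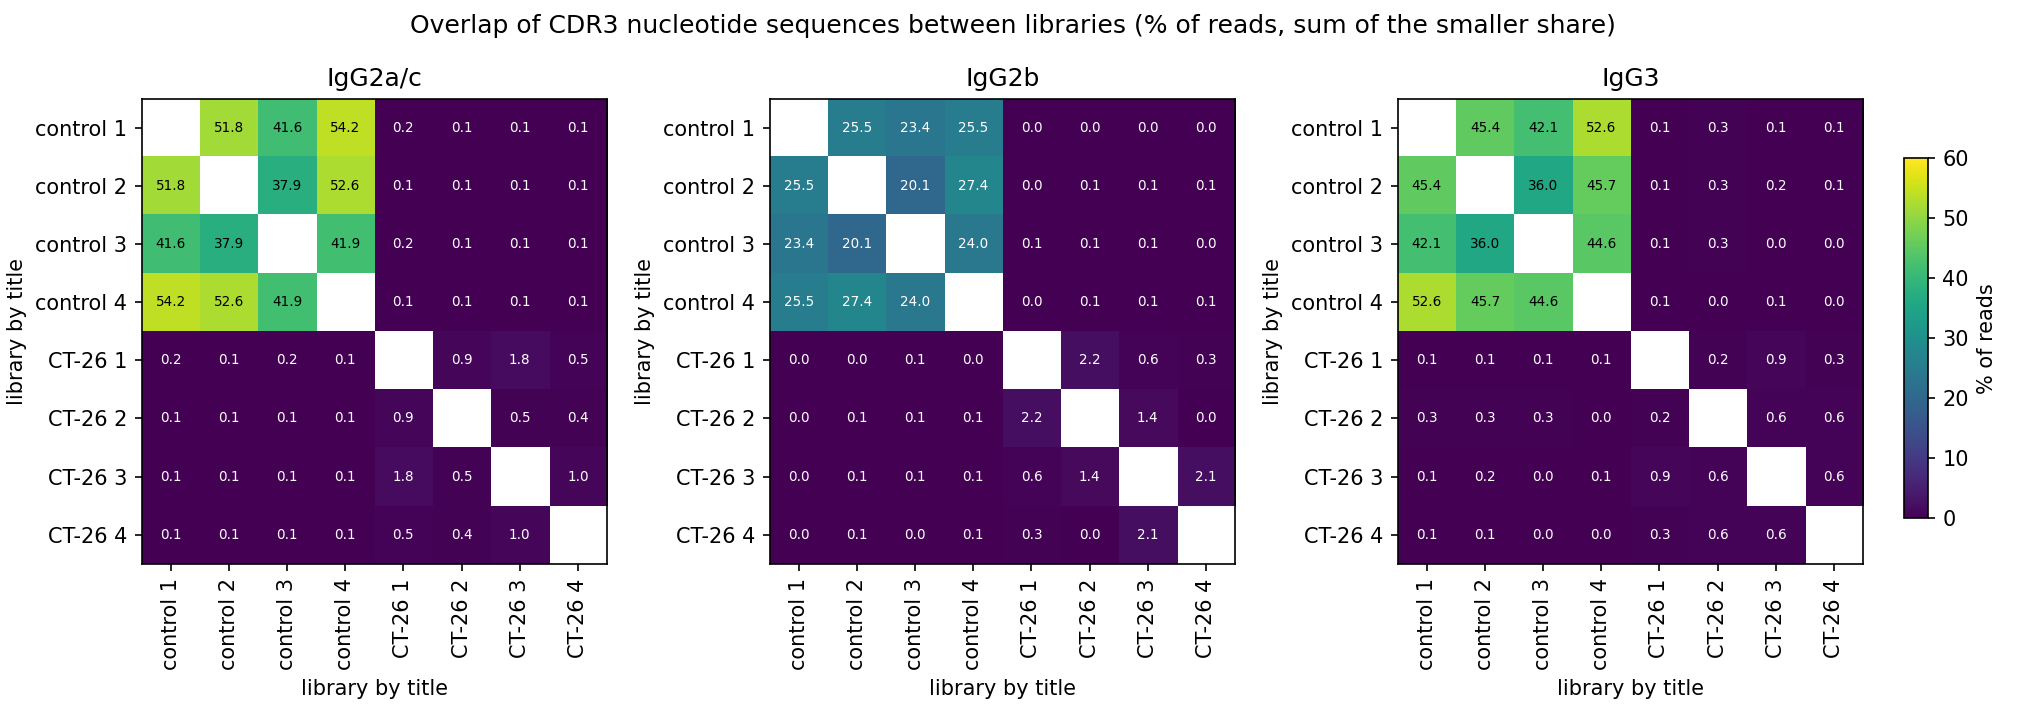
Overlap of CDR3 nucleotide sequences between each pair of libraries, for IgG2a/c, IgG2b and IgG3 (rows and columns, libraries by title; colour and printed value, percent of reads as the sum of the smaller share of each sequence). The block of 4 titled control libraries stands at 20.1% to 54.2%, and all other pairs are at or under 2.22%.

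Read counts of the titled control libraries differed from each other by more than counting noise. Over CDR3 sequences with at least 10 reads in both libraries together, the chi-square per degree of freedom of a titled control pair was 14.3 to 25.5 in the 3 isotypes, so no pair held the same set of reads. This measure covers counting error only, since amplified reads without molecular identifiers are not independent molecules, and it does not show separate samples. Of 132 IgG2a/c CDR3 sequences with at least 10 reads in some titled control library, 40 were present in all 4. For IgG2b these numbers were 13 of 89 and for IgG3 30 of 72. In the titled CT-26 libraries 1 of 706, 0 of 270 and 1 of 489 such sequences were present in all 4. The labels do not say whether the titled control libraries came from 1 spleen, from a pool or from separate mice, and these sources cannot be told apart. Each test between the sets below was therefore also run with the titled control libraries counted as 1 sample.

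The shared clones with most reads were large in more than 1 titled control library, some at similar and some at unequal shares. Many others reached 10 reads in 1 titled control library only: 74 of 132 in IgG2a/c, 65 of 89 in IgG2b and 51 of 72 in IgG3. In the titled CT-26 set these numbers were 674 of 706, 260 of 270 and 476 of 489. The largest IgG2a/c clone was the 13-residue sequence printed first above, called IGHV4-2, with 1101, 1147, 540 and 1201 IgG2a/c reads in titled control 1 to 4. It made up 16.9%, 19.8%, 17.4% and 18.7% of the IgG2a/c reads and was absent from IgG2a/c of the titled CT-26 libraries. The pair of shared clones with most IgG3 reads is printed too.
IgG3, most titled control reads: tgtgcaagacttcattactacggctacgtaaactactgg
IgG3, next: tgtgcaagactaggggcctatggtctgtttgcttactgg
The former had 625, 614, 268 and 696 IgG3 reads in titled control 1 to 4 and the latter 753, 115, 344 and 764. The latter thus ranged from 3.31% to 18.01% of IgG3 reads. Both are also 13 residues long and were called mostly IGHV4-2. Neither was read in IgG3 of a titled CT-26 library.

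IgG2a/c, IgG2b and IgG3 each took a larger share of the heavy-chain reads in the titled CT-26 set. IgG2a/c made up 3.20%, 2.94%, 1.95% and 3.12% of the reads with a named constant gene in titled control 1 to 4, and 7.95%, 9.98%, 7.08% and 12.1% in titled CT-26 1 to 4. The means were 2.80% ± 0.580 (SD, n = 4) and 9.27% ± 2.23 (SD, n = 4), a ratio of 3.31. IgG3 made up 2.05%, 1.76%, 1.69% and 2.40% against 5.65%, 4.57%, 4.65% and 8.54%, with means of 1.98% ± 0.322 and 5.85% ± 1.86 (SD, n = 4 each) and a ratio of 2.96. IgG2b differed least, at 1.17%, 1.06%, 0.988% and 0.868% against 1.99%, 1.82%, 1.22% and 1.71%, with means of 1.02% ± 0.126 and 1.68% ± 0.332 (SD, n = 4 each) and a ratio of 1.65.

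**Figure D2:**
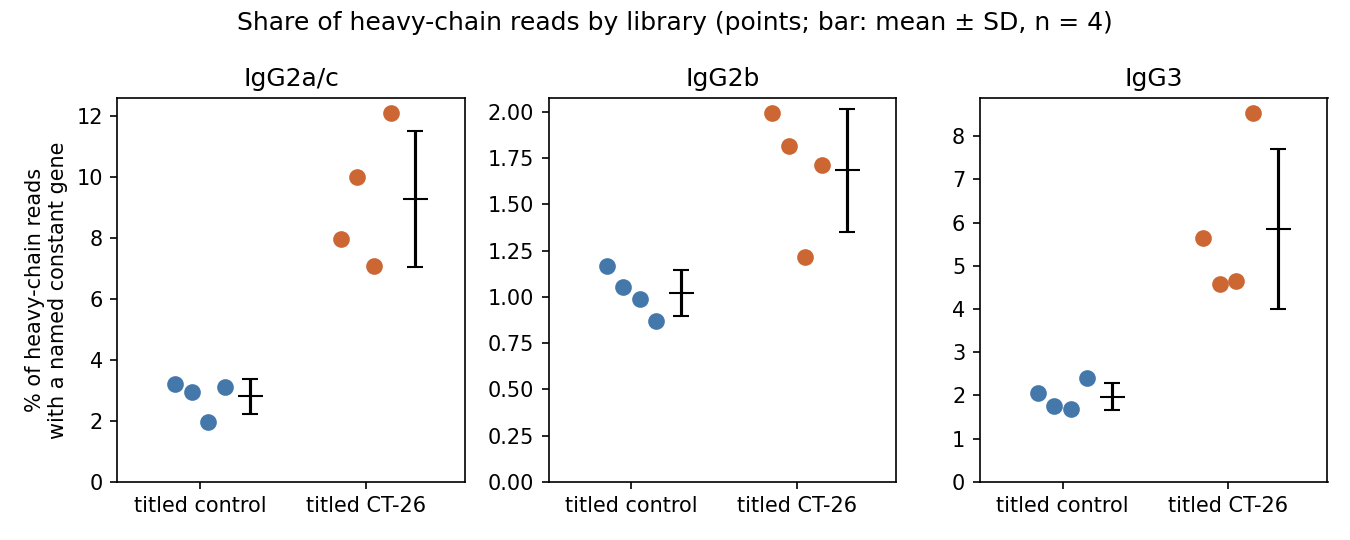
Percent of heavy-chain reads with a named constant gene that belonged to IgG2a/c, IgG2b and IgG3 (points, 1 library each; bars, mean ± SD of 4 libraries). No titled control library reached the lowest titled CT-26 library in any of the 3 isotypes.

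The sets did not overlap in any of the 3 isotypes, and each difference had p = 0.0286 by an exact two-sided permutation test over 70 assignments, the smallest it can give, and 0.0286 after Benjamini-Hochberg adjustment over 3 isotypes. With the titled control libraries counted as 1 sample the smallest possible p is 0.2, and the adjusted values by exact permutation were 0.3, 0.3 and 0.4. The IgG2b call was also lost when any 1 of the titled control libraries was left out, at an exact permutation p of 0.0571. Against IgG reads alone, the direction turned in all 3 isotypes: the difference of means was -3.08 percentage points for IgG2a/c, -8.28 for IgG2b and -5.19 for IgG3, and none passed (exact permutation, adjusted p = 0.4, 0.0857 and 0.0857). That denominator also holds IgG1, with 1477, 1557, 1845 and 1443 reads in titled control 1 to 4. In titled CT-26 1 to 4 IgG1 had 18301, 23324, 13305 and 21719 reads. Shares are parts of a whole, and numbers of cells and RNA per cell cannot be told apart in such bulk libraries.

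A few clones held much of each isotype in every library. The 10 largest clones, counted as CDR3 nucleotide sequences, took 34.5% to 51.2% of IgG2a/c reads, 26.8% to 42.1% of IgG2b reads and 40.4% to 57.4% of IgG3 reads. The largest single clone took 16.9% to 19.8% of IgG2a/c reads in the titled control libraries and 6.87% to 21.0% in the titled CT-26 libraries. For IgG3 these ranges were 15.5% to 19.0% and 8.64% to 24.8%, and for IgG2b 4.57% to 11.8% and 6.34% to 14.6%. Each titled CT-26 library led with a sequence of its own in each isotype. Reads in sequences read only once made up 9.37% to 19.8% of IgG2a/c, 17.4% to 26.5% of IgG2b and 14.4% to 24.04% of IgG3.

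Clone numbers were compared at equal reads because the libraries differ in depth. Clonotypes, defined by V, J and CDR3 nucleotide sequence, were calculated for a draw of as many reads as the smallest library had. IgG2a/c gave 843 ± 59.6 and 825 ± 59.5 clonotypes in 3105 reads in the titled control and titled CT-26 sets, IgG2b 623 ± 49.9 and 590 ± 51.4 in 1576 reads, and IgG3 884 ± 46.4 and 936 ± 95.6 in 2698 reads (SD, n = 4 per set). No difference passed the exact permutation test, with an adjusted p of 0.657 for each. With only clonotypes of at least 2 reads, the titled CT-26 set had more clonotypes for IgG2a/c by 162 and for IgG3 by 190, both at an adjusted exact permutation p of 0.0429. This filter was applied at full depth, before the equal draw, and the titled CT-26 libraries had more reads. These 2-read differences therefore cannot be separated from depth.

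The effective number of clones, the inverse Simpson index, weights clones by their reads. It ran from 17.2 to 26.8 for IgG2a/c in the titled control libraries and was 32.2, 39.0, 19.6 and 65.2 in titled CT-26 1 to 4. For IgG3 it ran from 16.4 to 19.3 in the titled control libraries and was 28.5, 48.5, 10.4 and 23.3 in titled CT-26 1 to 4. For IgG2b it ran from 40.2 to 130 in the titled control and from 34.2 to 75.1 in the titled CT-26 libraries. It was the highest of the 3 isotypes in all libraries but titled CT-26 2, where IgG3 was higher, and titled CT-26 4, where IgG2a/c was. Isotypes were not tested against each other. The sets overlapped in all 3 isotypes, and the differences of the log2 values, 0.80, -0.43 and 0.41 for IgG2a/c, IgG2b and IgG3, did not pass the exact permutation test (adjusted p = 0.257, 0.457 and 0.457). Titled CT-26 3 had the lowest IgG2a/c and IgG3 values of its set, and without it the IgG2a/c and IgG3 differences were 1.09 and 0.81 with an adjusted exact permutation p of 0.0429 each. Leaving out the lowest library of the higher set can only enlarge a difference. With each library left out in turn the differences ran from 0.51 to 1.09 for IgG2a/c and from 0.0693 to 0.81 for IgG3.

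Large clones came with many close relatives. CDR3 sequences of 1 library with the same J and length were joined into families when linked by at most 2 base mismatches. This step was chosen after the sequences were seen and is given as a description. Of 3084, 2665, 2062 and 3084 CDR3 sequences in titled control 1 to 4, the families numbered 1476, 1318, 1136 and 1474. In titled CT-26 1 to 4, 7292, 7188, 6260 and 9605 sequences fell into 2368, 2303, 2210 and 2911 families. The largest family held 16.7% to 23.8% of the reads of the 3 isotypes in the titled control libraries and 11.4% to 34.6% in the titled CT-26 libraries.

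The largest family of titled CT-26 4 held 1300 CDR3 sequences and 19157 reads, 12338 of them IgG3 and 6812 IgG2a/c but only 7 IgG2b. Its most abundant sequences are printed because single bases separate members of unequal isotype use. Capitals mark bases that differ from the most abundant one.
titled CT-26 4, family 1, most abundant: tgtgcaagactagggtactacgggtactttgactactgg
titled CT-26 4, family 1, next: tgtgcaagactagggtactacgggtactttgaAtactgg
titled CT-26 4, family 1, then: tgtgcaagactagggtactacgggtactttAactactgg
titled CT-26 4, family 1, then: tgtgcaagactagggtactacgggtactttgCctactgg
The most abundant sequence had 3709 IgG3 and 258 IgG2a/c reads, and the next had 2895 and 140. The other two leaned the other way, with 823 IgG3 and 1748 IgG2a/c reads and with 841 and 1194. In IgM these 4 sequences had 2422, 380, 235 and 215 reads.

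Titled CT-26 3 held a family of 18-residue CDR3 sequences with 1079 members and 5602 reads, 3775 IgG2a/c, 1825 IgG3 and 2 IgG2b. It was called IGHV5-9 in 65.8% of its reads and joined to IGHJ2. Its leading members are shown because they differ at several positions from each other and are longer than the 13-residue clones. Capitals again mark differences from the most abundant.
titled CT-26 3, family 2, most abundant: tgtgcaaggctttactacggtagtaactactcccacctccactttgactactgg
titled CT-26 3, family 2, next: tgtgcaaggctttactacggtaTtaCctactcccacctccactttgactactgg
titled CT-26 3, family 2, then: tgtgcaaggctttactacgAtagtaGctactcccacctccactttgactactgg
The first pair had 861 and 785 IgG2a/c reads against 122 and 175 IgG3 reads, whereas the last had 61 IgG2a/c and 368 IgG3 reads. Only 114 of the 1079 members were also read in IgM of this library. Bases that differ at few reads cannot be told apart from sequencing or amplification errors, since no molecular identifiers are described.

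The IGHV4, IGHV5 and IGHV1 families are described first. IGHV4 segments are known from mouse antibodies to galactan, a polysaccharide. V calls have a limit here: of 5326 CDR3 sequences found in more than 1 row of a library, 60.2% carried more than 1 V segment name and 23.5% more than 1 V family, and only 0.268% of rows were full length. Each CDR3 variant also counts as its own clonotype in the V shares and tests, unless merged, so variants of a few large clones can supply many counts. As a family, IGHV4 took 42.5% to 55.3% of IgG3 clonotypes in the titled control and 34.9% to 65.2% in the titled CT-26 libraries. It took 18.6% to 43.3% of IgG2a/c and 9.48% to 21.4% of IgG2b clonotypes over all 8 libraries. IGHV5 took 17.5% to 51.6% of IgG3, 36.5% to 57.6% of IgG2a/c and 23.0% to 64.04% of IgG2b clonotypes. In IgG3, IGHV4 was above IGHV5 in all libraries but titled CT-26 3, where IGHV5 led with 51.6%. The 18-residue family, called mostly IGHV5-9, made up 21.3% of the IgG3 clonotypes of that library. IGHV1, the largest V family of the mouse, took 7.73% to 15.3% of IgG3 but 13.4% to 43.6% of IgG2b clonotypes, and was the leading family of IgG2b in titled control 3.

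The 5 leading segments of IgG3 by mean share of clonotypes were IGHV4-1 (30.3%), IGHV4-2 (21.3%), IGHV5-9 (6.16%), IGHV5-6-5 (5.22%) and IGHV5-12-1 (3.81%). For IgG2a/c they were IGHV4-1 (22.2%), IGHV4-2 (9.62%), IGHV5-6-5 (9.31%), IGHV5-9 (6.60%) and IGHV5-17 (4.52%). For IgG2b they were IGHV4-1 (13.9%), IGHV5-6-5 (8.14%), IGHV5-4 (5.72%), IGHV5-9 (4.76%) and IGHV5-12-1 (4.20%), and IGHV4-2 was not among them. IGHV4-2 took 32.2%, 32.3%, 25.5% and 34.8% of IgG3 clonotypes in titled control 1 to 4. In titled CT-26 1 to 4 it took 5.03%, 6.64%, 3.05% and 30.7%, so that titled CT-26 4 lay among the titled control libraries. The 2 largest families of titled CT-26 4, with 1300 and 601 CDR3 sequences, were called IGHV4-2 in 87.9% and 78.1% of their reads. The 2 largest families of each titled control library were called IGHV4-2 in 60.2% to 97.3% of their reads.

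**Figure D3:**
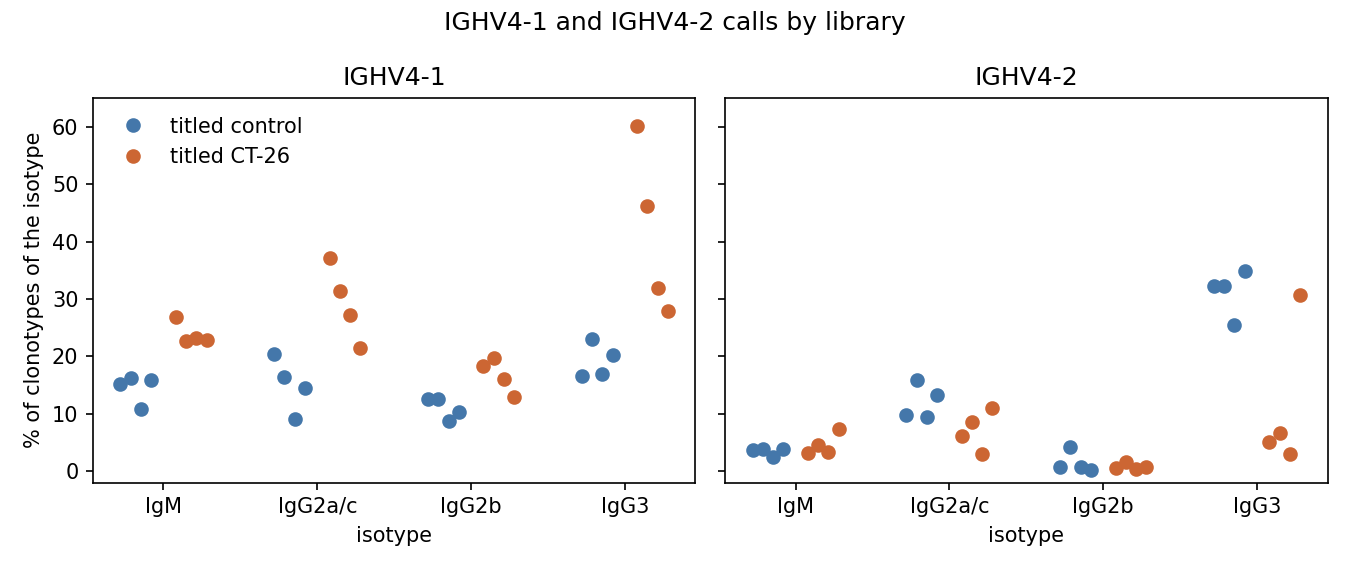
Percent of clonotypes called IGHV4-1 (left) and IGHV4-2 (right) in IgM, IgG2a/c, IgG2b and IgG3 (points, 1 library each). IGHV4-1 reached 60.1% of IgG3 clonotypes in titled CT-26 1, and IGHV4-2 lay at 25.5% to 34.8% of IgG3 in the titled control libraries and in titled CT-26 4 but at or under 6.64% in the other titled CT-26 libraries.

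Against IgM of the same libraries, each isotype had its own pattern. Clonotype numbers of 71 segments, those averaging 10 or more, entered the quasi-likelihood test of edgeR with the library as a term, and the 3 comparisons share the IgM values. In IgG3, 29 of 71 segments passed an adjusted p of 0.05 (40.8%), 2 higher (2.82%) and 27 lower (38.0%). The 2 higher were IGHV4-2, with a mean of 21.3% in IgG3 and 4.04% in IgM (log2 difference 2.06 ± 0.41 SE, edgeR adjusted p = 0.000716, higher in 7 of 8 libraries), and IGHV4-1, with 30.3% and 19.2% (0.58 ± 0.14, adjusted p = 0.00203, higher in 8 of 8). Among the lower, IGHV11-2, a segment of B-1 cells that bind phosphatidylcholine, had 0.0797% and 0.495% (log2 difference -2.39 ± 0.45, edgeR adjusted p = 0.000181, lower in 8 of 8). It was absent from IgG3 clonotypes of titled control 1 to 4 and titled CT-26 3 and 4. The IgM share was itself near the floor in titled control 3 (0.038%) and titled CT-26 4 (0.0294%), and highest in titled CT-26 1 (1.37%) and 2 (0.877%). IGHV5-15, IGHV5-6-3, IGHV5-4 and IGHV5-17 were lower by log2 differences of -1.71, -1.52, -1.07 and -0.95, each in 8 of 8 libraries.

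In IgG2b, 25 of 71 segments passed (35.2%), 13 higher (18.3%) and 12 lower (16.9%). All 6 of smallest p were higher. IGHV1-50 had 3.32% of IgG2b and 0.672% of IgM clonotypes (log2 difference 2.27 ± 0.27 SE, edgeR adjusted p = 3.04e-09, higher in 8 of 8 libraries). IGHV14-1 had 1.94% and 0.459% (1.92 ± 0.29, edgeR adjusted p = 1.12e-06, 8 of 8). IGHV1-80, IGHV1-76, IGHV1-14 and IGHV1-26 were higher by log2 differences of 1.52, 1.48, 1.13 and 1.24 in 8, 7, 8 and 7 of 8 libraries. IGHV4-2 was lower, with 1.11% of IgG2b and 4.04% of IgM clonotypes (-2.16 ± 0.46, edgeR adjusted p = 0.000548, lower in 7 of 8), and IGHV4-1 was lower with 13.9% and 19.2% (-0.46 ± 0.15, adjusted p = 0.00902, 8 of 8).

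In IgG2a/c, 26 of 71 segments passed (36.6%), 2 higher (2.82%) and 24 lower (33.8%). The 2 higher were IGHV4-2, at 9.62% against 4.04% in IgM (log2 difference 1.06 ± 0.39 SE, edgeR adjusted p = 0.0356, higher in 7 of 8 libraries), and IGHV1-50, at 1.38% against 0.672% (0.85 ± 0.27, edgeR adjusted p = 0.0103, 8 of 8). The 6 of smallest p were all lower in 8 of 8 libraries: IGHV10S3, IGHV7-3, IGHV3-1, IGHV9-2, IGHV10-1 and IGHV2-2, with log2 differences from -1.39 to -1.91. IGHV4-1 was at 22.2% and 19.2% and did not pass (0.15 ± 0.14, edgeR adjusted p = 0.513).

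These splits depend on the scaling. TMM scaling, which centres the typical segment, moved the median log2 difference by 0.46 in IgG2a/c, -0.25 in IgG2b and 0.41 in IgG3. It called 15 segments in IgG2a/c (5 higher, 10 lower), 29 in IgG2b (11 higher, 18 lower) and 5 in IgG3 (2 higher, 3 lower). IGHV4-1 and IGHV4-2 in IgG3, IGHV1-50 and IGHV14-1 in IgG2b, and IGHV4-2 in IgG2b kept direction and call under TMM. IGHV5-4 and IGHV5-17 in IgG3 lost theirs (adjusted p = 0.0854 and 0.172), and IGHV4-1 in IgG2a/c gained one as higher (0.61, adjusted p = 0.0142). The latter also passed with clonotypes of at least 2 reads (0.48, adjusted p = 0.0213) and with 1-mismatch merging (0.43, adjusted p = 0.00497). With the titled control libraries counted as 1 sample, 16, 18 and 13 segments passed in IgG2a/c, IgG2b and IgG3. IGHV4-1 in IgG3 then missed the threshold at a log2 difference of 0.67 (adjusted p = 0.108), as did IGHV4-2 in IgG2a/c at 0.73 (adjusted p = 0.188). Leaving out titled control 1, titled control 3, titled CT-26 1 or titled CT-26 4 ended the call of IGHV4-2 in IgG2a/c as well, at log2 differences of 0.95 to 1.14 (edgeR adjusted p from 0.0535 to 0.108). For IGHV4-1 in IgG2b the call ended without titled control 1 (0.0766), without titled control 4 (0.0715) and with 1 control sample (0.237), at log2 differences of -0.49, -0.44 and -0.50. It also ended with 1-mismatch merging (-0.22, adjusted p = 0.15), with at least 2 reads (-0.35, 0.161) and with a mean of at least 2 clonotypes (-0.46, 0.114). In IgG3 the count fell to 19 without titled CT-26 1.

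The other segments linked to natural antibodies were rare. IGHV11-2 took at most 0.487% of IgG2a/c, 0.361% of IgG2b and 0.333% of IgG3 clonotypes in any library, and was lower than in IgM in all 3 isotypes (edgeR adjusted p = 0.00167 and 0.00121 for IgG2a/c and IgG2b). With CDR3 sequences of 1 mismatch merged, the IGHV11-2 calls in IgG2a/c and IgG2b were lost (adjusted p = 0.503 and 0.0667). IGHV7-1, known from antibodies to phosphorylcholine, took 0.0267% to 0.646% of IgG2a/c clonotypes and was lower than in IgM there (log2 difference -1.37 ± 0.33 SE, edgeR adjusted p = 0.00114, 8 of 8 libraries). It did not pass in IgG2b (adjusted p = 0.298) or IgG3 (0.418). IGHV12-3, a segment of B-1 cells, took at most 0.419% of clonotypes of any of the 3 isotypes and was too rare to be tested.

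Between the title sets, few segments differed. In IgG2a/c 3 of 27 tested segments passed (11.1%), all lower in the titled CT-26 set. IGHV5-9-3 had 5.43% ± 1.94 and 1.57% ± 0.501 of clonotypes (SD, n = 4 per set; log2 difference -1.79 ± 0.44 SE, edgeR adjusted p = 0.0104). IGHV1-50 had 2.13% and 0.619% (-1.77 ± 0.50, edgeR adjusted p = 0.0188), and IGHV1-64 2.03% and 0.625% (-1.68 ± 0.49, edgeR adjusted p = 0.0188). The sets did not overlap in these 3 segments. IGHV4-1, at 20.4%, 16.3%, 9.15% and 14.5% in titled control 1 to 4 and 37.2%, 31.3%, 27.2% and 21.5% in titled CT-26 1 to 4, did not overlap either but missed the threshold (0.95 ± 0.33 SE, edgeR adjusted p = 0.0512). Under TMM, 1 segment passed, IGHV4-1, which was higher (1.40, adjusted p = 0.0076). Left-out libraries moved the count from 3 to 6 without titled control 4 and to 5 without titled CT-26 3 or titled CT-26 4.

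In IgG2b 5 of 26 segments passed (19.2%), 3 higher (11.5%) and 2 lower (7.69%) in the titled CT-26 set. IGHV5-12 had 1.96% ± 1.25 and 5.05% ± 1.27 (SD, n = 4 per set; log2 difference 1.37 ± 0.40 SE, edgeR adjusted p = 0.0239), and the sets overlapped. IGHV5-15 and IGHV5-9-4 were higher by 2.20 and 1.72, and IGHV14-1 and IGHV1S34 lower by log2 differences of -1.84 and -1.58 (edgeR adjusted p from 0.036 to 0.0374). The number of calls changed with single libraries: it was 0 without titled control 3 or titled control 4, 1 without titled CT-26 1, 2 without titled control 2 and 3 without titled CT-26 3. Without titled control 3 or 4, where none passed, the 5 log2 differences kept their direction, from 1.10 to 2.35 for the higher and from -1.52 to -1.82 for the lower segments. That of IGHV5-9-4 was 0.74 without titled CT-26 3 (edgeR adjusted p = 0.692). TMM left 1 call, IGHV5-12, with a log2 difference of 1.37.

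In IgG3 0 of 28 segments passed (0.00%) in edgeR, 4 had an unadjusted p under 0.05, and DESeq2 called 1. Leaving out titled CT-26 4 gave 4 calls and leaving out titled CT-26 1 gave 3. IGHV4-2, at 31.2% ± 3.99 and 11.3% ± 12.97 (SD, n = 4 per set), had a log2 difference of -1.46 ± 0.64 SE (edgeR adjusted p = 0.218). It became -2.67 (edgeR adjusted p = 2.1e-12) without titled CT-26 4, the library that lay among the titled control libraries. That p-value counts CDR3 variants of large clones separately and takes titled control libraries that share clones as independent. With the titled control libraries counted as 1 sample the IGHV4-2 difference was -1.49. IGHV4-1 was at 19.2% ± 3.02 and 41.5% ± 14.7 with no overlap and did not pass (1.12 ± 0.41, edgeR adjusted p = 0.168). TMM moved the median log2 difference by 0.45 in IgG2a/c and 0.40 in IgG3, and gave 1 call in IgG3, a higher one. With the titled control libraries counted as 1 sample, no segment passed in any of the 3 isotypes in edgeR (4, 1 and 0 with an unadjusted p under 0.05 in IgG2a/c, IgG2b and IgG3).

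J use was tested between the title sets only, and its values by isotype are a description. IgG3 clonotypes joined mainly to IGHJ2 (43.1% ± 18.5, SD over 8 libraries) and IGHJ3 (39.9% ± 12.9), and rarely to IGHJ4 (12.4% ± 6.997) or IGHJ1 (4.63% ± 3.12). IgG2b was spread more evenly, with 32.02% IGHJ4, 28.4% IGHJ2, 22.4% IGHJ3 and 17.3% IGHJ1, and IgG2a/c had 32.9% IGHJ2, 29.9% IGHJ4, 27.4% IGHJ3 and 9.82% IGHJ1. J use differed widely within the titled CT-26 set: IGHJ2 took 6.58%, 41.8%, 73.8% and 46.9% of IgG3 clonotypes in titled CT-26 1 to 4, against 38.5% to 50.9% in the titled control libraries. None of 12 tests between the sets passed (exact permutation). IGHJ4 in IgG2a/c came nearest, at 35.9% ± 4.92 and 23.9% ± 4.52 with no overlap, with an exact permutation p of 0.0286 and an adjusted p of 0.343.

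CDR3 length differed between the isotypes within libraries. Each clonotype counted once and the flanking cysteine and tryptophan included, the mean length was 13.1 ± 0.479 residues in IgG3, 13.7 ± 0.468 in IgG2a/c and 13.7 ± 0.344 in IgG2b (SD over 8 libraries). The IgG3 minus IgG2b difference was -0.588, -0.626, -0.595 and -0.631 residues in titled control 1 to 4 and -1.22, -0.44, -0.167 and -0.608 in titled CT-26 1 to 4. The mean difference was -0.609 ± 0.291 (SD), shorter in 8 of 8 libraries, with an adjusted p of 0.0117 in an exact two-sided sign-change test. IgG3 was also shorter than IgG2a/c, by a mean difference of -0.609 ± 0.214 in 8 of 8 (exact, adjusted p = 0.0117). IgG2a/c and IgG2b differed by 0.00088 ± 0.346 residues, with IgG2a/c longer in 5 of 8 libraries (exact, adjusted p = 0.992).

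**Figure D4:**
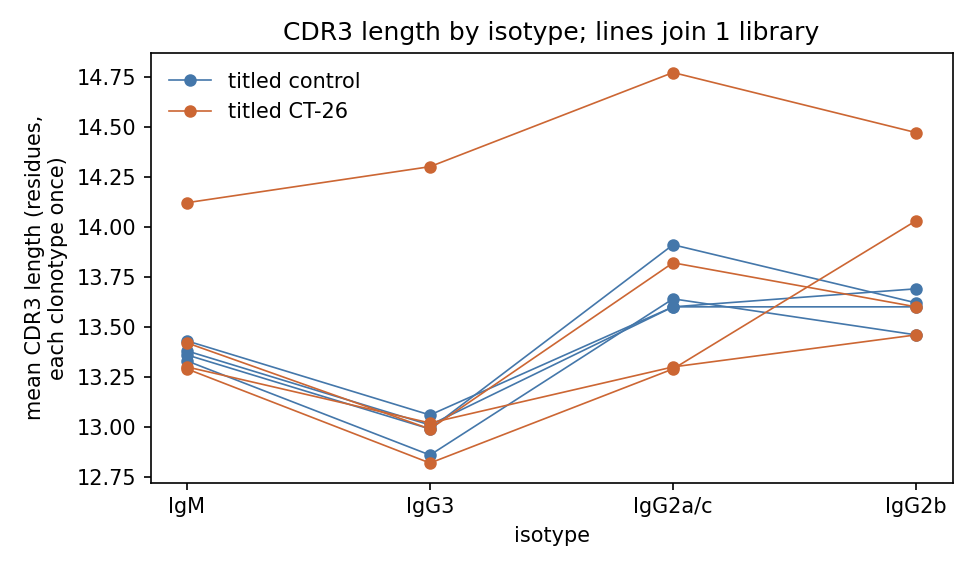
Mean CDR3 length in residues, each clonotype once, by isotype (lines join the values of 1 library; the axis does not start at 0). The IgG3 value lies under the IgG2a/c and IgG2b values of the same library in all 8, and titled CT-26 3 stands above the other libraries in all 4 isotypes.

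Against IgM, IgG2b was longer by 0.287 ± 0.197 residues in 8 of 8 libraries (exact sign-change test, adjusted p = 0.0117), and IgG3 shorter, at -0.322 ± 0.213 in 7 of 8 (exact, adjusted p = 0.0188). IgG2a/c was longer by 0.288 ± 0.237 in 8 of 8 (exact, adjusted p = 0.0117), but in titled CT-26 1 and 2 by only 0.000893 and 0.0032. Titled CT-26 3 was the exception for IgG3, at 0.183 residues above IgM. Its 18-residue family made up 22.5% of its IgG2a/c and 21.3% of its IgG3 clonotypes, against 0.188% of IgG2b and 0.371% of IgM clonotypes. Only this family was left out, a choice made after the data were seen. Large 13-residue families, which also hold many IgG3 reads, were kept in every library. Without the 18-residue family, the IgG3 difference from IgM in titled CT-26 3 was -0.801 and the mean over libraries -0.445 in 8 of 8 (exact, adjusted p = 0.0117). The IgG2a/c difference there was -0.272 without the family, and its mean over libraries fell to 0.172 with the call lost (exact, adjusted p = 0.122). That call was also lost with reads as weights (0.221, exact, adjusted p = 0.0844) and when clonotypes were joined without V (0.163, exact, adjusted p = 0.103). With the titled control libraries counted as 1 sample, 5 values remain, the smallest possible p is 0.0625, and none of the length differences passed. Between the title sets no isotype differed in length (exact permutation, adjusted p = 0.914 for each).

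Lengths and residues of the CDR3 are described here without a test. CDR3 sequences of 13 residues made up 47.1% and 46.6% of IgG3 sequences in the titled control and titled CT-26 sets, 27.6% and 33.8% of IgG2a/c, 16.6% and 19.1% of IgG2b, and 19.0% and 23.3% of IgM. D segments of the IGHD1 family were called in 52.2% and 47.5% of IgG3 sequences, against 37.8% and 39.6% in IgG2b. In titled CT-26 1 to 4 the IgG3 values were 43.1%, 35.2%, 69.1% and 42.4%. In titled CT-26 2 the order was the reverse, with 46.6% in IgG2b. The mean net charge of the CDR3, lysine and arginine minus aspartate and glutamate, was 0.218 and 0.0107 in IgG3, -0.0922 and -0.0602 in IgG2a/c, -0.112 and -0.27 in IgG2b, and -0.103 and -0.14 in IgM. Libraries of 1 set differed in sign. The net charge of IgG3 was 0.127, -0.0743, -0.127 and 0.117 in titled CT-26 1 to 4, but 0.161 to 0.329 in the titled control libraries. That of IgG2a/c was 0.0371, 0.0149, -0.258 and -0.163 in titled control 1 to 4. The set means of tyrosine were 16.1% to 17.9% of residues in every isotype, and single libraries ran from 14.0% to 19.1% in IgG3.

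The 13-residue form shown at the start was common in IgG3 and IgG2a/c. It was noticed in the sequences and is described without a test. It took 11.2% to 12.3% of IgG3 sequences in the titled control and 3.21% to 9.53% in the titled CT-26 libraries, and 4.77% to 6.71% and 3.44% to 5.42% of IgG2a/c sequences. In IgM it took 0.581% to 1.64% over both sets, and in IgG2b at most 1.90%. In reads, its share of IgM was 2.34% to 10.3% and of IgG2b at most 3.66%. By reads it held 52.9% to 56.2% of IgG3 in titled control 1 to 4, against 12.4%, 5.91%, 50.9% and 53.9% in titled CT-26 1 to 4. In titled CT-26 2, IgM held 4.68%. In IgG1 it held at most 1.85% and in IgA at most 2.42% of reads. The leading nucleotide sequences of this form differed between the titled CT-26 libraries, whereas the titled control libraries shared theirs.

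Most IgG reads lay in CDR3 sequences that were also read in IgM of the same library. This share of reads was 71.4% to 89.1% for IgG2a/c, 81.6% to 87.4% for IgG3 and 52.6% to 69.2% for IgG2b. To compare libraries, sequence numbers were calculated for equal draws of IgG reads and of 118859 IgM reads. Of IgG3 sequences 54.5% ± 1.66 and 51.3% ± 3.41 were found in IgM in the titled control and titled CT-26 sets (SD, n = 4 per set), of IgG2a/c 40.5% ± 3.36 and 49.1% ± 3.98, and of IgG2b 34.6% ± 2.71 and 29.8% ± 1.81. IgG2a/c lay at 42.2%, 43.1%, 35.6% and 41.1% in titled control 1 to 4 and at 50.5%, 53.8%, 44.4% and 47.7% in titled CT-26 1 to 4, with no overlap. With all reads in place of equal draws the IgG2a/c difference turned to -2.86 percentage points (exact permutation, adjusted p = 0.171). At equal draws its exact permutation p was 0.0286 and its adjusted p 0.0857, and IgG2b and IgG3 did not pass either (0.0857 and 0.171).

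**Figure D5:**
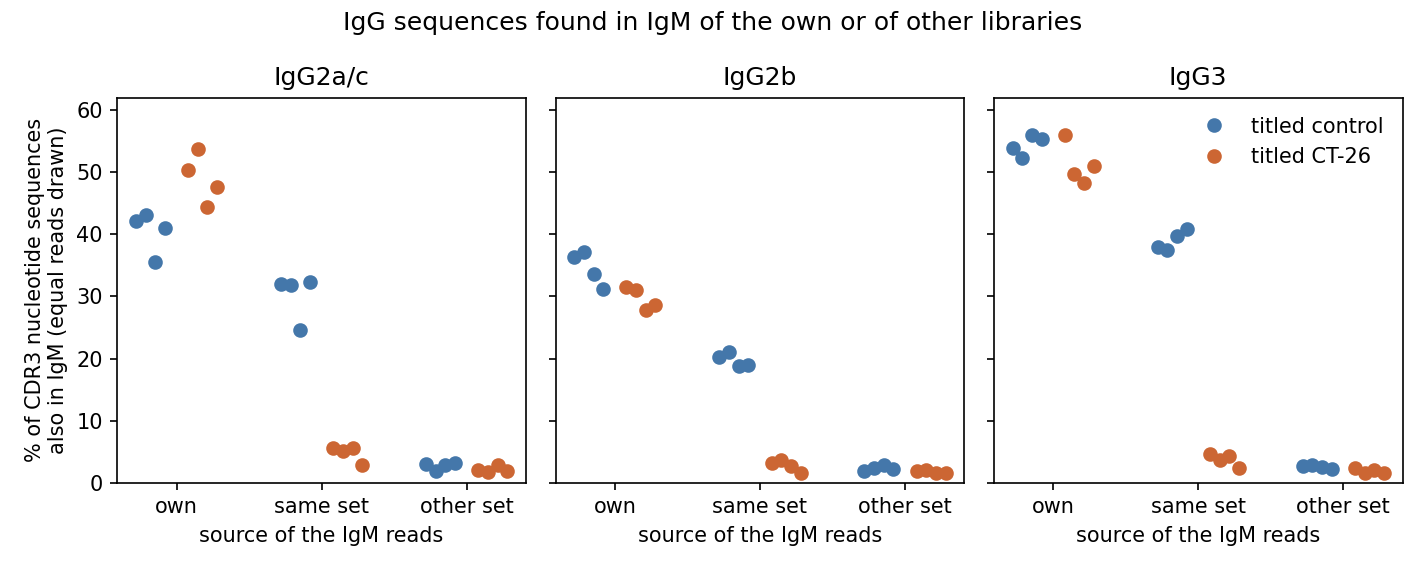
Percent of IgG CDR3 nucleotide sequences also found in IgM of the own library, of other libraries of the same title set, or of the other set, at equal reads drawn (points, 1 library each). Values for the own library lie between 27.9% and 56.1%, those for the other set at or under 3.24%, and those for the same set are high only among titled control libraries.

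Sharing with IgM was highest within the own library, but much of it extended to the other libraries of the titled control set. The own share exceeded the mean share with IgM of the other 7 libraries by 35.9, 26.2 and 42.5 percentage points for IgG2a/c, IgG2b and IgG3, in 8 of 8 libraries each (exact two-sided sign-change test, p = 0.00781, the smallest possible, adjusted p = 0.00781). IgM of the other title set held 1.76% to 3.24% of IgG2a/c, 1.49% to 2.83% of IgG2b and 1.52% to 2.81% of IgG3 sequences. Among titled CT-26 libraries, IgM of the same set held 2.88% to 5.60%, 1.47% to 3.71% and 2.43% to 4.61%. Among titled control libraries it held 24.6% to 32.3%, 18.8% to 21.1% and 37.5% to 40.8%. With the titled control libraries counted as 1 sample the differences were 41.9, 27.1 and 46.1 points, at an exact p of 0.0625, the smallest that 5 values allow.

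IgG2a/c and IgG3 also shared clones with each other. At equal reads 11.1% ± 2.44 and 16.9% ± 2.07 of CDR3 sequences were common to IgG2a/c and IgG3 in the titled control and titled CT-26 sets (SD, n = 4 per set). The values were 11.3%, 13.7%, 7.84% and 11.7% in titled control 1 to 4 and 17.6%, 19.5%, 14.7% and 15.9% in titled CT-26 1 to 4. The sets did not overlap, and the difference had an exact permutation p of 0.0286 and an adjusted p of 0.0857. IgG2a/c and IgG2b shared 5.20% and 5.02%, and IgG2b and IgG3 2.24% and 3.58%, with adjusted exact permutation p of 0.771 and 0.3. The largest IgG2b clones followed this split: in 5 of 8 libraries the leading IgG2b sequence had 0 IgG3 reads, whereas the leading IgG2a/c sequences had 50 to 3049 IgG3 reads in their own library.

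Few CDR3 sequences recurred widely. Of 17742 IgG2a/c sequences 9 were found in 5 or more libraries, of 7134 IgG2b sequences 2, and of 17257 IgG3 sequences 8, and none in all 8. The sequence in most libraries is printed for each isotype because it crosses the title sets.
IgG2a/c, 6 libraries: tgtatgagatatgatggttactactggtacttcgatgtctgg
IgG2b, 7 libraries: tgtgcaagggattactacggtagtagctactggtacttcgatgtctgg
IgG3, 6 libraries: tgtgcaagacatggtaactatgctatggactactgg
The IgG2a/c sequence was called IGHV11-2 in 97.3% of its reads and had 3, 6, 1, 2, 13, 12, 0 and 0 reads in titled control 1 to 4 and titled CT-26 1 to 4. The IgG2b sequence, called IGHV5-15 in 88.2% of its reads, had at most 4 reads in a library, as did the IgG3 sequence, called IGHV4-1 in 72.7%. These recurring sequences were thus small clones, unlike the largest of those shared by the titled control libraries.

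The RNA-seq libraries of the same titles give the constant genes in separate libraries, at 735298 to 1970950 counts per library. Ighg3 (chromosome 12, 113319844 to 113324852 in GRCm39) had 26, 13, 11 and 51 counts in titled control 1 to 4 and 69, 83, 22 and 45 in titled CT-26 1 to 4. It was higher in the titled CT-26 set (log2 difference 1.26 ± 0.38 SE, edgeR adjusted p = 0.0107). The set means were 19.9 ± 10.8 and 48.2 ± 19.6 CPM, the counts scaled to a common library total after TMM (SD, n = 4 per set). Ighg2b (chromosome 12, 113266585 to 113271553) had 28, 15, 17 and 27 against 25, 41, 14 and 25 counts and did not pass (0.34 ± 0.34, edgeR adjusted p = 0.433). Ighg2c (chromosome 12, 113248945 to 113252552) had 2, 1, 0 and 1 against 0, 0, 0 and 0 counts and was not tested, although IGHG2C is the most read of the 3 isotypes in the BCR tables. RNA reads were counted without strand, and reads from Ighg genes can be split between near-identical copies.

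Of a list of 44 genes of class switching and plasma cells, 21 were tested and 10 passed, 3 higher and 7 lower, against 42.8% of all 6408 tested genes (21.2% higher and 21.6% lower). The list's median log2 difference was -0.24 and that of all genes -0.02. The other two that rose were Ighg1 (3.17 ± 0.31 SE, edgeR adjusted p = 2.05e-08) and Ighe (4.87 ± 0.59, edgeR adjusted p = 2.28e-07), constant genes of type 2 responses. Ighd, the constant gene of naive B cells, fell (-3.95 ± 0.25, edgeR adjusted p = 6.04e-12). Tnfrsf13b and Tnfrsf13c, receptors for the B cell survival factor BAFF, fell with log2 differences of -1.36 and -1.03. Jchain, which joins IgM and IgA polymers, fell least (-0.54 ± 0.21, edgeR adjusted p = 0.0369), and this call was lost without TMM (-0.15, adjusted p = 0.671) and when titled control 1, titled control 3, titled CT-26 2, titled CT-26 3 or titled CT-26 4 was left out (adjusted p from 0.0516 to 0.148). Scaling by library totals moved the median of all genes by 0.37 and gave 4 higher and 4 lower calls in the list. With the titled control libraries counted as 1 sample 6 genes of the list passed, and Ighg3 did not, at a log2 difference of 1.21 (adjusted p = 0.0536).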

How the data were processed

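Per the labels' protocols, total RNA was extracted from spleen with a Takara MiniBEST kit, and a SMARTer mouse TCR a/b profiling kit is named for library construction. Each row of the deposited BCR tables holds a read count, V, D, J and C names and a CDR3 sequence, made by a program not given in the sources used here. RNA tables were deposited as gene counts made with featureCounts 2.0.1 on GENCODE M29 without strand, per the file headers. Trimmomatic 0.39, STAR 2.7.10a, GRCm39 and GRCm38 are named in the submitters' processing notes.

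The members, lists and tests were chosen with earlier results of these data known. BCR tables held 731857 to 909745 reads, 7379 to 63716 of them in the 3 isotypes; counting error is set by these numbers. Alleles were removed and rows joined by V, J and CDR3 nucleotide sequence (a clonotype). Expected clonotype numbers, sharing at equal reads and the inverse Simpson index were computed by formula, without random draws. Sets were compared by exact permutation and isotypes within libraries by exact sign changes, both two-sided. For V segments averaging 10 or more clonotypes, edgeR 4.0.16 was used without TMM, and for RNA counts after filterByExpr and TMM. P was adjusted by Benjamini-Hochberg within each family of tests, at 0.05. Named V segments were the 5 of largest mean share per isotype, up to 6 of smallest p per test, and IGHV11-2, IGHV12-3 and IGHV7-1; named RNA genes were Ighg2b, Ighg2c, Ighg3, Jchain and up to 6 of smallest p. A result that this rule selects is not reported here. Scripts were tested on simulated data. Alternatives were DESeq2 1.42.0, TMM or none, other filters, merging of CDR3 sequences with 1 mismatch, a replicate block and leaving out each library. Added after seeing the data were joining without V, the titled control libraries as 1 sample, sharing with the other set only, and leaving out 1 family. Gene symbols were matched for 52081 of 55414 genes. Further tools were R 4.3.3, scipy 1.17.1 and pandas 2.3.3 under Python 3.11.15, with matplotlib 3.10.9 for figures.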

Additional observations from a re-analysis of the deposited data

Results flagged for a closer look

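Of 78 sets of 4 library values tested for a library far from the other 3 by Dixon's test of the gap over the range, 6 were marked; chance marks about 1 in 20. IgG3 of titled CT-26 2 had 1079 clonotypes at equal reads, the highest of its set. IgG2a/c of titled control 2 had a mean CDR3 length of 13.9 residues, above the other titled control libraries. IgG3 of titled CT-26 3 had a mean CDR3 length of 14.3 residues, which was 13.3 without its 18-residue family. IGHJ1 took 3.51% of IgG2a/c clonotypes in titled CT-26 4, the lowest of its set, and IGHJ2 took 33.4% in titled control 4, the highest of its set. The IgG3 minus IgM length difference of titled control 3 was -0.467 residues, the largest of its set in size.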

How the results depend on the processing

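Over all alternatives, 387 of 476 values of the 35 comparisons were kept. For single differences this means the same direction and side of the threshold. For the counts of V, J and RNA calls it means a count within 1.5-fold of the main one. Several differences that did not pass either way changed sign. That of IgG2a/c minus IgG2b length became -0.0441 with at least 2 reads, -0.0228 merged, -0.0942 weighted by reads, -0.0268 joined without V, -0.0569 with 1 control sample, -0.115 without the 18-residue family and -0.0419 to 0.107 with 1 library left out. IgG2a/c to IgG2b sharing became 1.13 merged, 1.07 with all reads and -0.602 to 0.209 with 1 library left out, and IgM sharing 2.98 for IgG2b with at least 2 reads and -2.86 for IgG2a/c with all reads. Clonotype differences became 39.5 for IgG2b with at least 2 reads, -54.2 for IgG3 merged and -38.9 to 10.3 for IgG2a/c with 1 library left out. Length between sets became -0.0333 for IgG2a/c weighted by reads, and with 1 library left out was -0.217 to 0.275 for IgG2a/c and -0.0374 to 0.457 for IgG3. IGHV4-2 in IgG2b between sets was -1.46 to 0.56 and IGHV7-1 in IgG3 -0.60 to 0.19 with 1 library left out. IGHV7-1 in IgG3 was 0.31 between sets and 0.11 against IgM under TMM, and 0.0202 against IgM merged. Against IgG reads alone the shares turned, to -3.08, -8.28 and -5.19 percentage points for IgG2a/c, IgG2b and IgG3. With only clonotypes of at least 2 reads, a filter applied before the equal draw and so tied to depth, the IgG2a/c clonotype difference turned to 162 and passed. That of IgG3 became 190 and passed. The IgG2b share (0.574) and the IgG3 minus IgM length (-0.218) lost their calls under this filter. Its V counts between sets were 1, 3 and 2 for IgG2a/c, IgG2b and IgG3, and that of IgG2b against IgM was 14. The IgG2a/c minus IgM length lost its call with reads as weights (0.221), joined without V (0.163) and without the 18-residue family (0.172). With all reads in place of equal draws, IgM sharing passed for IgG2b (-8.36) and IgG3 (-12.5), as did sharing of IgG3 with IgG2a/c (7.06) and IgG2b (3.65). The titled control libraries as 1 sample left shares of 6.47, 0.664 and 3.87, own minus other IgM sharing of 41.9, 27.1 and 46.1, and lengths of -0.608 (IgG3 minus IgG2b), -0.551 (IgG3 minus IgG2a/c), 0.274 and 0.331 (IgG2a/c and IgG2b minus IgM) and -0.277 (IgG3 minus IgM), which cannot pass at that number. It left V counts of 0 and 0 between sets for IgG2a/c and IgG2b, 16 and 13 against IgM for IgG2a/c and IgG3, and 6 RNA genes. TMM gave V counts of 1, 1 and 1 between sets, and 15 and 5 against IgM for IgG2a/c and IgG3. A mean of at least 2 clonotypes gave 9 and 8 between sets for IgG2a/c and IgG2b, and 40 and 19 against IgM for IgG2b and IgG3. DESeq2 gave 5 for IgG2a/c and 1 for IgG3 between sets, merging gave 19 for IgG3 against IgM, and no RNA filter gave 16. For these changes the cause was not tested, apart from the smaller number of samples.

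Leaving out 1 library at a time gave IgG2b shares of 0.562 to 0.820, effective clone differences of 0.51 to 1.09 for IgG2a/c and 0.0693 to 0.81 for IgG3, V counts between sets of 3 to 6, 0 to 5 and 0 to 4, V counts against IgM of 22 to 26, 20 to 27 and 19 to 27, and 9 to 15 RNA genes. Same-numbered libraries did not deviate together (correlations -0.0121, 0.041, -0.0867 and -0.0505), so numbers are not treated as pairs. With a replicate block the V counts between sets were 2, 2 and 1 and the RNA count 10. Depth limits the rarest segments, and shares of IgG2b rest on the fewest reads.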
